A study of Mus musculus with 16 samples.

Results

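The genes of the major histocompatibility complex (MHC) class II pathway were followed through the single-cell transcriptomes of lineage-depleted mouse bone marrow. The members were the 7 rows of the gene list whose symbol is Cd74, H2-Aa, H2-Ab1, H2-Eb1, H2-DMa, H2-DMb1 or Ciita, out of 27998 gene rows in each of the 8 libraries. They were described in hematopoietic stem cell (HSC)-like, progenitor, monocyte-like, dendritic cell (DC)-like and plasmacytoid dendritic cell (pDC)-like cells, in mice given IL1β or vehicle and with or without Tet2.

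MHC class II molecules are pairs of an alpha and a beta chain that carry peptides from endocytosed proteins to the cell surface for CD4 T cells. H2-Aa and H2-Ab1 encode the chains of the I-A molecule, and H2-Eb1 encodes the beta chain of I-E, whose alpha chain is not made in mice of the C57BL/6 background. Cd74 encodes the invariant chain, which occupies the peptide groove during assembly and routes the complex to endosomes, where H2-DM, made of H2-DMa and a beta chain, exchanges the remaining fragment for antigenic peptide. Ciita encodes the class II transactivator, which joins factors bound to the X and Y boxes of these genes' promoters. The pathway is known for its high constitutive activity in dendritic cells and B cells and for its induction by interferon-γ in other cells.

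The 16 C57BL/6 mice, aged 6 to 12 weeks, formed 4 groups of 4. WT mice carried floxed Tet2 alleles (Tet2fl/fl) without Cre, and Tet2-KO mice (Vav-Cre-Tet2-/-) had lost Tet2 in hematopoietic cells through a Vav-driven Cre, so an effect of Cre itself cannot be told apart from the loss of Tet2. Each genotype was given 500 ng per mouse and day of IL1β intraperitoneally or vehicle for 5 weeks. Marrow was depleted of lineage-positive cells, which removes most mature antigen-presenting cells, and 2 mice of the same group were tagged with hashtag antibodies and loaded together, so that each group rests on 2 pools. Of 94917 cells that passed filters in 8 libraries, 57896 could be given to 1 mouse, between 698 and 6432 cells and 4388604 to 44152768 unique molecular identifiers (UMIs) per mouse. Of the cell barcodes, 1061 occurred in more than 1 library. The 3′ counts of Tet2 overlapped between genotypes given vehicle (31 to 46.9 CPM, counts scaled to 1000000 UMIs, in WT mice and 36.4 to 46.2 CPM in Tet2-KO mice) and do not check the deletion.

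Cells were assigned to gates by the number of marker genes with at least 1 UMI, and no class II gene served as a marker. The HSC-like gate held 1101 cells, a gate asking for both Flt3 and Cd34 held 1581, the granulocyte/monocyte progenitor-like gate held 13417, the monocyte-like gate held 4339, the DC-like gate held 321 and the pDC-like gate held 450. Further marker lists separated 5 of these gates from the others. The number of markers that each gate asked for was also chosen with these lists, so they give no independent check. For the DC-like gate, the list of Itgax, Cst3, Id2 and Flt3 reached a median of 134 per 10000 UMIs of a cell against 23.6 in the next gate. The Flt3/Cd34 gate was not separated (10.4 against 9.78 per 10000 UMIs for Sox4, Cd48 and Cd27), and it is therefore named by its genes. Values per mouse were used where a mouse had at least 10 cells of a gate, which held for 15 mice in the HSC-like gate, for 16 in the Flt3/Cd34, progenitor-like and monocyte-like gates, for 8 in the DC-like gate and for 7 in the pDC-like gate.

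The members lie at 3 places of the GRCm38 genome. H2-DMa (chr17:34119541-34139101, + strand), H2-DMb1 (chr17:34153072-34160230, +), H2-Ab1 (chr17:34257689-34269419, +), H2-Aa (chr17:34282744-34287823, - strand) and H2-Eb1 (chr17:34305867-34316674, +) sit together in the MHC. Ciita is at chr16:10480059-10528418 on the + strand, and Cd74 lies on another chromosome. H2-DMb1 has a near-identical neighbor, H2-DMb2, which is also expressed at a low level (median 22.8 CPM in DC-like cells), so the split of reads between these genes is uncertain.

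RefSeq promoter windows of GRCm38.p6, from 250 bases before to 50 after the transcript start, were used for 4 of the 7 members. Those of the members that hold a match are printed to show where the letters lie. The capitals mark the Y box letters TGATTGG and the X box-like letters AACNGATGA, where N is any base, a pattern set after these windows had been seen. Both strands were searched, and the motifs did not overlap.
H2-DMb1, chr17:34152941-34153240, + strand: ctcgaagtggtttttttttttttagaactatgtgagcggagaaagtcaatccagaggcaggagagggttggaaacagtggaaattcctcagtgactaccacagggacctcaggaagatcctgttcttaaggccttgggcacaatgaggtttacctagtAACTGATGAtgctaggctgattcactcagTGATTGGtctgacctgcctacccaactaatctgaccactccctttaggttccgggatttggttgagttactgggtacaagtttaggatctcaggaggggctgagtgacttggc
H2-Eb1, chr17:34305617-34305916, + strand: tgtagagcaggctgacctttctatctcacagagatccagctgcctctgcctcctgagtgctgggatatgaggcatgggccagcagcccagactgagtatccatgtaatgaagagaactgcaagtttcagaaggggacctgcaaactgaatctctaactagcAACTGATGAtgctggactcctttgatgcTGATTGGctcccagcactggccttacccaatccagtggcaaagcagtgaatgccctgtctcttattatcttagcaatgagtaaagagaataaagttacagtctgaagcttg
H2-Aa, chr17:34287774-34288073, - strand: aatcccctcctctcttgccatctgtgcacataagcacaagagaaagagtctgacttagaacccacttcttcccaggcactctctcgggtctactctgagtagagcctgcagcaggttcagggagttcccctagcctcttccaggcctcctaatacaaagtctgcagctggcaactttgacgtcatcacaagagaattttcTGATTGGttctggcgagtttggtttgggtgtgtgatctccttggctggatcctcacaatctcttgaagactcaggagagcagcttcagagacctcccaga

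The Y box lay 63 to 57 bases before the start in H2-DMb1, 61 to 55 bases before it in H2-Eb1 and 50 to 44 bases before it in H2-Aa. H2-DMb1 and H2-Eb1 also held the X box-like letters, at 92 to 84 and at 89 to 81 bases before the start, while the H2-Aa window did not. The transcript start used for H2-DMb1 lies inside the gene as given above, so its Y box and X box-like letters lie after the listed gene start. Neither pattern was found in the 2 windows of H2-DMa, at chr17:34122582-34122881 and chr17:34125268-34125567. Both lie within the gene as given above and do not cover its listed start, where the letters were not searched. Of 32851 promoter windows of this length, 7.82% held the Y box letters, 0.648% held the X box-like letters and 20 windows (0.0609%) held both. A match is a description of the letters and was not tested as a binding site. Because the X box-like letters were set after the windows had been seen, their absence does not show that a window lacks an X box.

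Of the 6 gates, DC-like cells had the highest median of all 7 members. A UMI stands for 1 molecule captured at its 3′ end, so CPM values do not scale with gene length and may be set side by side between genes, apart from differences in capture. In the 8 mice with enough DC-like cells, the median level was 6256 CPM for Cd74, 2935 CPM for H2-Ab1, 2649 CPM for H2-Aa, 1700 CPM for H2-Eb1, 581 CPM for H2-DMa, 365 CPM for H2-DMb1 and 101 CPM for Ciita. The invariant chain thus stood above each surface chain, the surface chains above the peptide exchange factor, and the transactivator below all of them.

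Among these mice, Cd74 in DC-like cells was 6246, 6266 and 5486 CPM in WT mice 1, 3 and 4 with vehicle and 5722, 6407 and 6428 CPM in Tet2-KO mice 1, 3 and 4 with vehicle. It was 10074 and 5377 CPM in WT mice 1 and 3 with IL1β. The vehicle groups overlapped, and the single high value came from a mouse with 12 DC-like cells. H2-Aa followed the same mice, with 2393, 2743 and 2395 CPM in WT mice with vehicle, 2689, 2609 and 3042 CPM in Tet2-KO mice with vehicle, and 5831 and 2279 CPM in WT mice with IL1β. Ciita ranged from 63.5 to 231 CPM over the same mice, and no mouse lacked it.

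**Figure D1:**
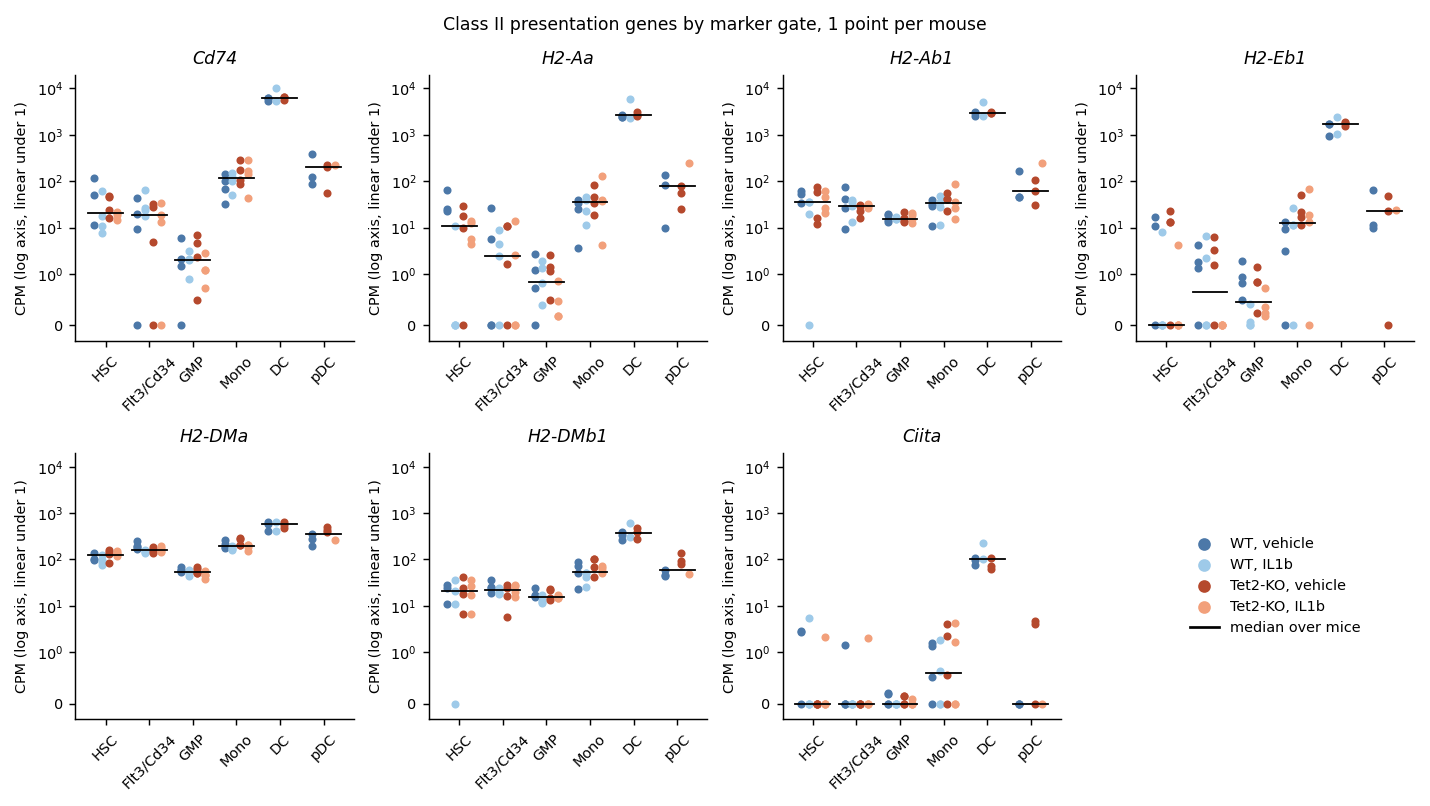
Level of each member (CPM per mouse, symmetric log axis that is linear under 1) in 6 gates, with 1 point per mouse colored by group and a bar at the median. The DC-like median is the highest in every panel, although DC-like and pDC-like points overlap for H2-DMa, and DC-like values run from 63.5 CPM for the lowest Ciita value to 10074 CPM for the highest Cd74 value, while the lowest H2-DMa value of any gate is 38.9 CPM.

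The surface chains and Cd74 dropped steeply outside the DC-like gate. In pDC-like cells the medians were 200 CPM for Cd74 (55.9 to 390 over 7 mice), 79.2 CPM for H2-Aa, 60.3 CPM for H2-Ab1 and 23.2 CPM for H2-Eb1. Monocyte-like cells had medians of 116 CPM for Cd74 (31.5 to 292 over 16 mice), 35.5 CPM for H2-Aa, 34.1 CPM for H2-Ab1 and 12.2 CPM for H2-Eb1. HSC-like cells had 20.4 CPM of Cd74 (7.74 to 115 over 15 mice), 34.8 CPM of H2-Ab1 and 10.7 CPM of H2-Aa, and H2-Eb1 was at 0 in 8 of 15 mice. Granulocyte/monocyte progenitor-like cells had the lowest medians of the 6 gates for Cd74 (2.02 CPM, 0 to 6.92 over 16 mice) and H2-Aa (0.846 CPM), and their H2-Eb1 median was 0.45 CPM against 0 in HSC-like cells.

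H2-DMa varied less between gates than the genes of the molecule it serves. Its median was 350 CPM in pDC-like cells (192 to 507), 198 CPM in monocyte-like cells (150 to 289), 162 CPM in the Flt3/Cd34 gate (136 to 251), 125 CPM in HSC-like cells (77.6 to 161) and 54.2 CPM in granulocyte/monocyte progenitor-like cells (38.9 to 69.6), and no mouse was at 0 in any of these gates. H2-DMb1 lay lower, at 58.8, 53.9, 22.1, 20.8 and 15.7 CPM in the same order of gates. Between the DC-like and the granulocyte/monocyte progenitor-like medians, H2-DMa spanned 581 to 54.2 CPM, whereas Cd74 spanned 6256 to 2.02 CPM.

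Among the 6 gates, Ciita was near the limit of detection outside DC-like cells. Summed over all mice it had 29 UMIs in the monocyte-like gate, 2 in the pDC-like gate of 1362322 UMIs of all genes, 2 in the Flt3/Cd34 gate and 5 in the granulocyte/monocyte progenitor-like gate of 104016771 UMIs. In HSC-like cells it was at 0 in 11 of 15 mice. Outside these gates, the cells that met both the monocyte-like and the DC-like rule had a median of 11.3 CPM (0 to 34.7 over 13 mice, 30 UMIs). In the pDC-like, Flt3/Cd34 and HSC-like gates, H2-DMa was thus measured at medians of 350, 162 and 125 CPM while the median of the transactivator was 0.

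Neighbors in the order of mean level were compared within mice, by a two-sided exact permutation test of log2(CPM + 1) with sign flips and Benjamini-Hochberg adjustment over 35 member-by-neighbor tests, of which 7 passed 0.05. Ciita was higher in DC-like than in monocyte-like cells in 8 of 8 mice, by 5.39 on the log2 scale (exact permutation p = 0.00781, the smallest that 8 mice allow, adjusted p = 0.0391). Cd74 was higher in monocyte-like than in HSC-like cells in 13 of 15 mice, by 2.09 (exact permutation test, adjusted p = 0.00267), and higher in the Flt3/Cd34 gate than in granulocyte/monocyte progenitor-like cells in 13 of 16 mice, by 2.12 (adjusted p = 0.00513). H2-DMa descended in steps that each passed the exact permutation test, from monocyte-like to Flt3/Cd34 cells (0.26, 13 of 16 mice, adjusted p = 0.0335), to HSC-like cells (0.49, 14 of 15 mice, adjusted p = 0.00142) and to granulocyte/monocyte progenitor-like cells (1.11, 15 of 15 mice, adjusted p = 0.00107). H2-DMb1 was higher in monocyte-like than in Flt3/Cd34 cells in 15 of 16 mice, by 1.39 (exact permutation test, adjusted p = 0.00107). Without cells that had a marker of another antigen-presenting type, only the step of H2-DMa from HSC-like to granulocyte/monocyte progenitor-like cells still passed among all 35 (exact permutation test, adjusted p = 0.0342), and with a stricter gate the steps of Ciita and of H2-DMa from monocyte-like to Flt3/Cd34 cells did not.

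DC-like and pDC-like cells, the top of the order for the other 6 members, could be paired in 6 mice, and all 6 mice had the higher level in DC-like cells for each of those members. The mean difference was 6.74 for H2-Eb1, 5.74 for H2-Aa, 5.49 for H2-Ab1, 5.36 for Cd74, 2.29 for H2-DMb1 and 0.69 for H2-DMa on the log2(CPM + 1) scale. With 6 mice the smallest exact permutation p is 0.0312, which each of these tests reached and which was 0.0576 after adjustment. The other neighbors were not told apart. H2-Ab1 differed by a mean of 0.16 between the monocyte-like and Flt3/Cd34 gates (higher in the first in 8 of 16 mice) and by -0.07 between the Flt3/Cd34 and HSC-like gates (5 of 15 mice). pDC-like and monocyte-like cells differed by 1.01 for Cd74 (6 of 7 mice, adjusted p = 0.202) and by -0.19 for H2-DMb1 (3 of 7 mice, adjusted p = 0.434) in the same exact permutation test.

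The makeup of the class II transcript pool changed with these levels. In DC-like cells 42.3% of all member UMIs were Cd74, 51% were the 3 surface chains and 3.61% were H2-DMa. H2-DMa made up 41.1% of member UMIs in pDC-like cells, 45.7% in monocyte-like cells, 49.7% in HSC-like cells, 59.5% in granulocyte/monocyte progenitor-like cells and 67.7% in the Flt3/Cd34 gate. H2-DMa was thus the most frequent member transcript in each of these gates. That was not particular to them, since it made up 68.4% in megakaryocyte-marked cells and 40.9% in basophil and mast cells. In erythroid cells it made up 34.9%, beside 34.6% for H2-Ab1, and in NK and T cells 17%.

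Summed over all groups, the 2 chains of I-A were balanced in some gates and not in others. H2-Ab1 had 1.12 UMIs per UMI of H2-Aa in DC-like cells, 1.08 in pDC-like cells and 1.02 in monocyte-like cells. By group, the pDC-like value was 0.4 in WT mice with IL1β (6 against 15 UMIs) and 1.09 to 1.26 in the other groups. The ratio was 2.46 in HSC-like cells, 3.85 in the Flt3/Cd34 gate and 17.3 in granulocyte/monocyte progenitor-like cells, where 1674 UMIs of H2-Ab1 stood against 97 of H2-Aa. In these 3 gates the ratio differed between groups, and in HSC-like cells it was 1.29 and 2.56 in WT and Tet2-KO mice with vehicle (44 against 34 and 41 against 16 UMIs) and 5 in each genotype with IL1β (20 against 4 and 55 against 11 UMIs). In the Flt3/Cd34 gate it was 2.38 and 3.53 with vehicle and 8.75 and 6.11 with IL1β, and in granulocyte/monocyte progenitor-like cells 10.9 and 11.5 with vehicle and 16.9 and 39.9 with IL1β. These differences in ratio were not tested. Gates of other lineages varied as well, with 12.7 in basophil and mast cells, 11.4 in megakaryocyte-marked cells, 6.02 in erythroid cells, 3.58 in plasma cells, 1.94 in neutrophils and 0.872 in NK and T cells. The level of H2-Ab1 in granulocyte/monocyte progenitor-like cells (median 15.6 CPM) was near that in erythroid cells (16.8 CPM), and free RNA from other cells was not tested as a source of it.

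**Figure D2:**
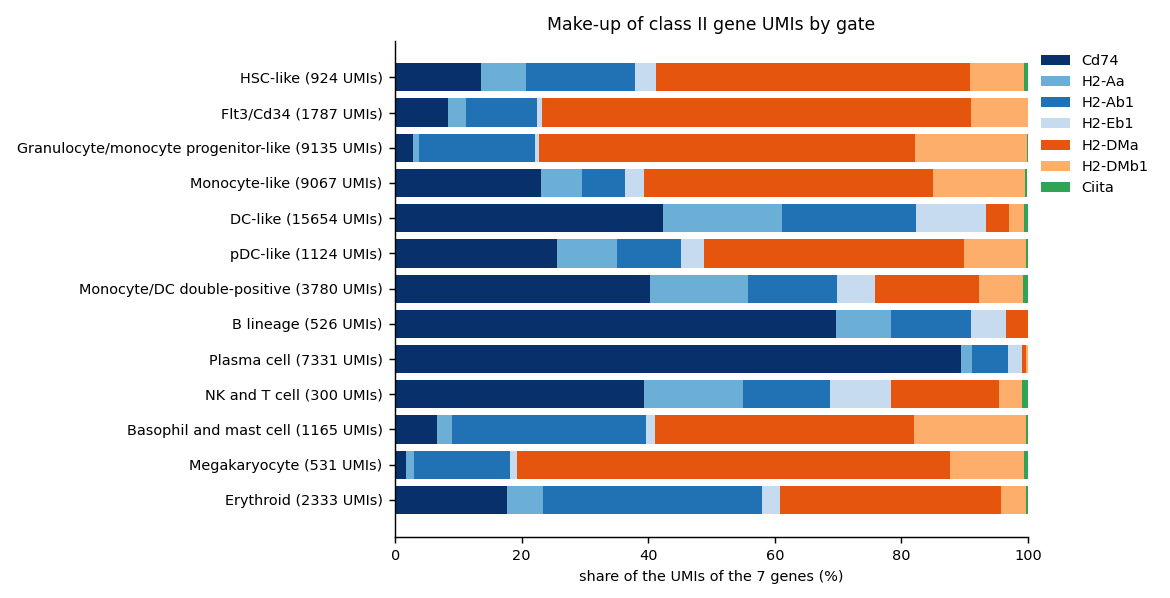
Share of all member UMIs (percent, stacked to 100) taken by each of the 7 members in 13 gates. Cd74 fills most of the plasma cell bar (89.5%), and DC-like cells combine Cd74 with the surface chains. H2-DMa takes the largest part in the progenitor gates (67.7% in the Flt3/Cd34 gate) and also in megakaryocyte-marked cells (68.4%).

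Plasma cells, the antibody-secreting end of the B lineage, were marked by 3 of 5 markers of their own and also had high Cd74. Over 15 mice their Cd74 was 2520 to 5485 CPM (median 3943), but H2-Ab1 had a median of 213 CPM, H2-Eb1 92.8 CPM, H2-Aa 41.8 CPM, H2-DMa 26.8 CPM and H2-DMb1 5.35 CPM. No Ciita UMI was found among 1770493 UMIs of these cells, which allows a level of up to 1.69 CPM. Cd74 had 9.36 UMIs per surface chain UMI, against 0.829 in DC-like cells, and 50.2% of plasma cells had Cd74 without any surface chain. Summed over all groups, DC-like cells (0.554% of cells) gave 21.1% of all Cd74 UMIs and plasma cells (1.18% of cells) gave 20.9%. Cells in no single gate gave much of the rest. Those that met several marker rules (23.4% of cells) gave 28.5%, and those that met none (19% of cells) gave 11.7%. By group the DC-like share was 23.7% and 28.9% in WT and Tet2-KO mice with vehicle and 14.7% and 13.9% with IL1β, and that of plasma cells 17.1% and 15.8% with vehicle and 27.3% and 25.6% with IL1β. Of the other members, again over all groups, DC-like cells gave 40.8% of H2-Eb1, 39.3% of H2-Aa and 31.6% of Ciita but 1.87% of H2-DMa. Cells that met several marker rules gave 22.5%, 19.4%, 23.5% and 34.8% of the same members.

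Within cells, the members were found together in the DC-like gate. At least 5 of the 7 were detected in 63.9% of DC-like cells, all 7 in 14% and none in 3.12%. In monocyte-like cells at least 5 were detected in 2.12% and in HSC-like cells in 0.182%. Shares of cells depend on depth, so cells were also thinned to 1500 UMIs, with shallower cells left out. Cd74 was then found in 80.4% of DC-like cells (84.1% unthinned, median depth 2871 UMIs), 9.68% of pDC-like cells, 6.81% of monocyte-like cells (9.75% unthinned), 3.78% of HSC-like cells (6.18% unthinned), 2.49% of Flt3/Cd34 cells and 0.336% of granulocyte/monocyte progenitor-like cells. Of the lineages that should lack the pathway, it was found in 0.816% of erythroid cells (2.37% unthinned, median depth 11274 UMIs), 1.07% of neutrophils (median depth 3381 UMIs) and 0.661% of basophil and mast cells (2652 UMIs), but in 8.25% of NK and T cells (9.45% unthinned, 1776 UMIs). By share of cells, Cd74 in monocyte-like, HSC-like and Flt3/Cd34 cells was thus above erythroid cells, neutrophils and basophil and mast cells but below NK and T cells. Granulocyte/monocyte progenitor-like cells were below all of these lineages. Whether NK and T cells make Cd74 of their own was not tested. H2-DMa was found after thinning in 55.3% of DC-like, 37.7% of pDC-like, 29.3% of monocyte-like, 23.2% of Flt3/Cd34, 16.1% of HSC-like and 7.35% of granulocyte/monocyte progenitor-like cells, against 2.47% of erythroid, 5.58% of NK and T and 9.25% of megakaryocyte-marked cells. H2-Ab1 was found in 2.54% of granulocyte/monocyte progenitor-like cells, close to the 2.32% of erythroid cells and below the 4.13% of NK and T cells.

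**Figure D3:**
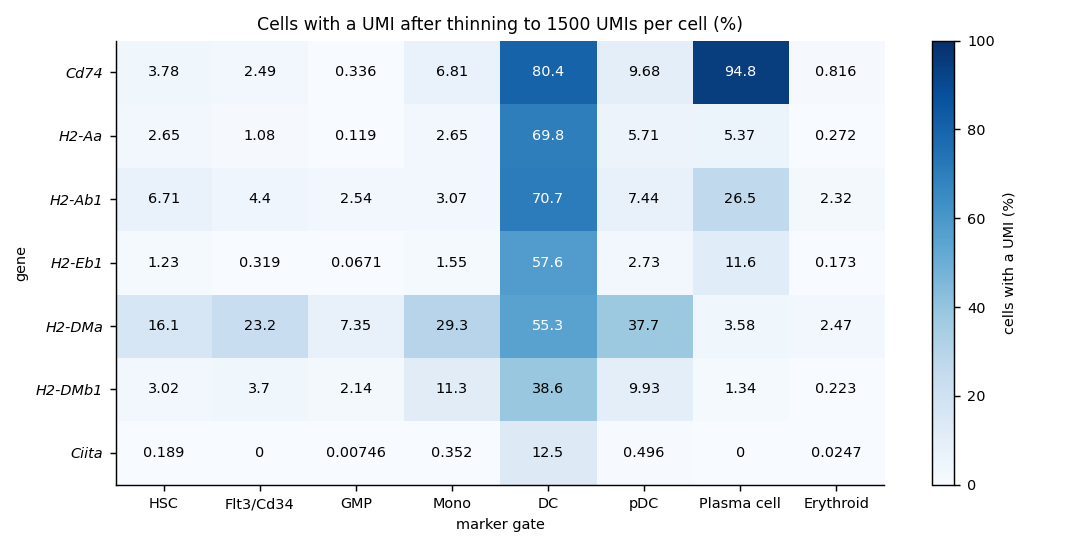
Percent of cells with at least 1 UMI of each member after thinning to 1500 UMIs per cell, in 6 gates and in plasma and erythroid cells. DC-like cells are high for Cd74 (80.4%) and the surface chains, plasma cells for Cd74 only (94.8%), and H2-DMa is spread over the pDC-like (37.7%), monocyte-like (29.3%) and progenitor gates.

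DC-like cells were not uniform. A first set of 180 cells had at least 2 markers of type 1 dendritic cells (Xcr1, Clec9a, Batf3, Naaa, Wdfy4) and none of type 2 dendritic cells (Cd209a, Clec10a, Mgl2). These had 8162 CPM of Cd74, 4391 CPM of H2-Ab1, 3764 CPM of H2-Aa and 128 CPM of Ciita over all cells. A second set of 84 cells, with at least 1 type 1 and at least 1 type 2 marker, had 3514, 1385, 1571 and 65.9 CPM of the same genes. Per mouse, Cd74 was 6351 to 9333 CPM in the first set (7 mice) and 1875 to 4491 CPM in the second (4 mice), and these ranges did not overlap. H2-DMa was close in both, at 591 and 512 CPM. Only 14 cells had type 2 markers alone, with 4152 CPM of Cd74. The other 43 cells had at most 1 type 1 marker and no type 2 marker. They had 4692 CPM of Cd74, 1720 CPM of H2-Ab1, 1643 CPM of H2-Aa and 69.1 CPM of Ciita, so lower levels were not particular to cells with type 2 markers. The type 2 markers are shared with monocyte-derived cells, and 426 cells that met both the monocyte-like and the DC-like rule had a median of 567 CPM of Cd74 (305 to 1650).

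Whether IL1β changed the members was tested in each gate with edgeR's quasi-likelihood test on UMIs summed per mouse, with Benjamini-Hochberg adjustment over all genes of the gate and all 4 groups in 1 fit. A gene was called at an adjusted p under 0.05. The smaller members did not pass the filter on low counts everywhere, so that 3 of 7 were tested in HSC-like cells, 4 in the Flt3/Cd34 gate, 4 in granulocyte/monocyte progenitor-like cells, 6 in monocyte-like cells, 7 in DC-like cells and 6 in pDC-like cells. A lower level of a gene over a gate can come from fewer cells that make it or from less RNA per cell, which summed counts cannot tell apart. The p-values measure the spread between mice that share pools.

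In WT mice 3 of 24 tests were called, all lower with IL1β, and 8 had an unadjusted p under 0.05. In Tet2-KO mice 2 of 23 were called, both lower, and 6 had an unadjusted p under 0.05. Of these 23 tests, 6 were in pDC-like cells with a single IL1β mouse of 13 cells, and 2 of the 6 unadjusted p values came from there, both higher with IL1β (H2-Aa 1.92 and H2-Ab1 1.61). The calls of this edgeR fit fell in HSC-like and granulocyte/monocyte progenitor-like cells, while some alternatives also called H2-DMa in monocyte-like cells. Over all genes in HSC-like cells, 925 of 5668 had an unadjusted edgeR p under 0.05 in WT and 1262 in Tet2-KO mice. Across all genes, 3.39% of genes were called with IL1β in WT and 6.1% in Tet2-KO HSC-like cells (2.1% and 3.56% lower), and 29.4% and 39.6% in granulocyte/monocyte progenitor-like cells (16% and 19.9% lower). The shares were 6.06% and 13.4% in the Flt3/Cd34 gate and 6.22% and 5.04% in monocyte-like cells. Read against these shares, 2 of 4 members called in granulocyte/monocyte progenitor-like cells is little above the background of that gate, and 1 of 3 called in WT HSC-like cells is a single gene.

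H2-DMa, the alpha chain of the exchange factor, was called in both genotypes in granulocyte/monocyte progenitor-like cells. There it was 69.6, 58.7, 53.5 and 60.1 CPM in WT mice with vehicle and 50.3, 43.2, 54.9 and 59.3 CPM in WT mice with IL1β. The groups overlapped, and the log2 fold change was -0.42 ± 0.13 (SE, edgeR adjusted p = 0.0184). In Tet2-KO mice it was 50.1, 50.8, 63.5 and 67.2 CPM with vehicle and 46.8, 56.9, 38.9 and 47.2 CPM with IL1β, again with overlap, and the log2 fold change was -0.43 ± 0.12 (edgeR adjusted p = 0.00818). H2-DMb1 fell with IL1β in WT mice, with a log2 fold change of -0.56 ± 0.18 (edgeR adjusted p = 0.0268) and ranges that went from 15.2 to 24.2 CPM with vehicle to 11.7 to 17.1 CPM with IL1β. In Tet2-KO mice its log2 fold change was -0.34 ± 0.16 (edgeR adjusted p = 0.0946). Over all groups, the median of H2-DMa in this gate was 54.2 CPM. It was 66.6 CPM in megakaryocyte-marked, 47.9 CPM in basophil and mast and 15.5 CPM in erythroid cells. For H2-DMb1 the median was 15.7 CPM in this gate and 9.33, 17.8 and 1.51 CPM in the same other cells. All 3 calls were lost when counts were scaled to library totals instead of TMM factors (-0.23, -0.29 and -0.38, edgeR adjusted p = 0.164, 0.0633 and 0.0968), an alternative added after the data were seen. That scaling moved the median of all genes of the gate by 0.18 in WT and 0.13 in Tet2-KO mice, and the split of called genes from 1404 higher and 1685 lower to 3186 and 952 in WT mice and from 2065 and 2094 to 3142 and 1440 in Tet2-KO mice. Because such a change of scaling moves all genes of a contrast by nearly the same amount, sizes relative to the median are alike by construction. They give no support to the 3 calls. Without the cells that had a marker of another antigen-presenting type, none of the 3 was called (-0.37, -0.24 and -0.52), nor with the pools of 2 mice as replicates (-0.40, -0.43 and -0.54). H2-Ab1, the other member tested besides Cd74, had estimates of -0.25 ± 0.18 in WT (edgeR adjusted p = 0.319) and -0.09 ± 0.16 in Tet2-KO mice (edgeR adjusted p = 0.702). Macrophage markers were higher with IL1β in the same gate, without overlap, from 32.7 to 67.1 CPM summed over 7 markers to 107 to 180 CPM in WT mice and from 18.3 to 63.2 CPM to 109 to 153 CPM in Tet2-KO mice, and their part in the result was not tested.

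Cd74 was called in each genotype in a different gate. In HSC-like cells of WT mice it was 11.2, 49.4 and 115 CPM with vehicle, where mouse 2 had too few cells, and 10.7, 17.8, 7.74 and 62.3 CPM with IL1β. The groups overlapped and the log2 fold change was -2.12 ± 0.53 (edgeR adjusted p = 0.0187). Of the 59 UMIs behind the vehicle values, 25 came from 1 cell and 69.5% from 5 cells. Without WT vehicle mouse 4, the change was -1.28 (edgeR adjusted p = 0.401), and it was not called with pools as replicates (-2.22, edgeR adjusted p = 0.0615) or with mice taken from the hashtag ratio (-1.86, edgeR adjusted p = 0.0702). Nor was it called with the mouse number as a block, and DESeq2 gave no adjusted p for it. With a stricter gate it had no test. Without cells that had a marker of another antigen-presenting type it fell below the filter on low counts and had no test. In Tet2-KO HSC-like cells the values were 16.4, 24, 45.1 and 48.4 CPM with vehicle and 20.4, 18.7, 21.9 and 14.2 CPM with IL1β (log2 fold change -0.99 ± 0.52, edgeR adjusted p = 0.257), and the interaction of genotype and IL1β was 1.13 ± 0.78 (adjusted p = 1). H2-Ab1 had an estimate of -1.16 ± 0.50 in WT (edgeR adjusted p = 0.228) and -0.09 ± 0.40 in Tet2-KO mice (edgeR adjusted p = 0.934), and H2-DMa had -0.44 ± 0.24 (edgeR adjusted p = 0.372) and -0.11 ± 0.19 (edgeR adjusted p = 0.789). DC markers in HSC-like cells were higher with IL1β, at 123 to 462 CPM against 67.4 to 112 CPM in WT mice, summed over 12 markers. Of these, Cd209a, Batf3 and Ifi205 were at 0, and the part of the DC markers in the result was not tested. The plasma cell markers were also higher with IL1β in these cells, at 88.3 to 2905 CPM against 24.7 to 37.3 CPM in WT mice over 5 markers, and their part in the result was not tested.

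In granulocyte/monocyte progenitor-like cells of Tet2-KO mice, Cd74 was 2.26, 0.484, 6.92 and 4.68 CPM with vehicle and 0.734, 2.76, 1.23 and 1.19 CPM with IL1β. The log2 fold change was -1.50 ± 0.53 (edgeR adjusted p = 0.0291) with 65.2% of the 89 vehicle UMIs in 5 cells. These levels were near those in the erythroid cells of the same groups, where median Cd74 was 4.64 CPM with vehicle and 1.46 CPM with IL1β. Leaving out any of 5 single mice (vehicle 3 or 4, IL1β 1, 3 or 4) ended the call, as did DESeq2 (-1.47, adjusted p = 0.103), pools as replicates (-1.53), the hashtag ratio (-1.42) and a stricter gate (-1.18). Without cells that had a marker of another antigen-presenting type, it too had no test. In WT mice the change was -0.60 ± 0.59 (edgeR adjusted p = 0.477).

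**Figure D4:**
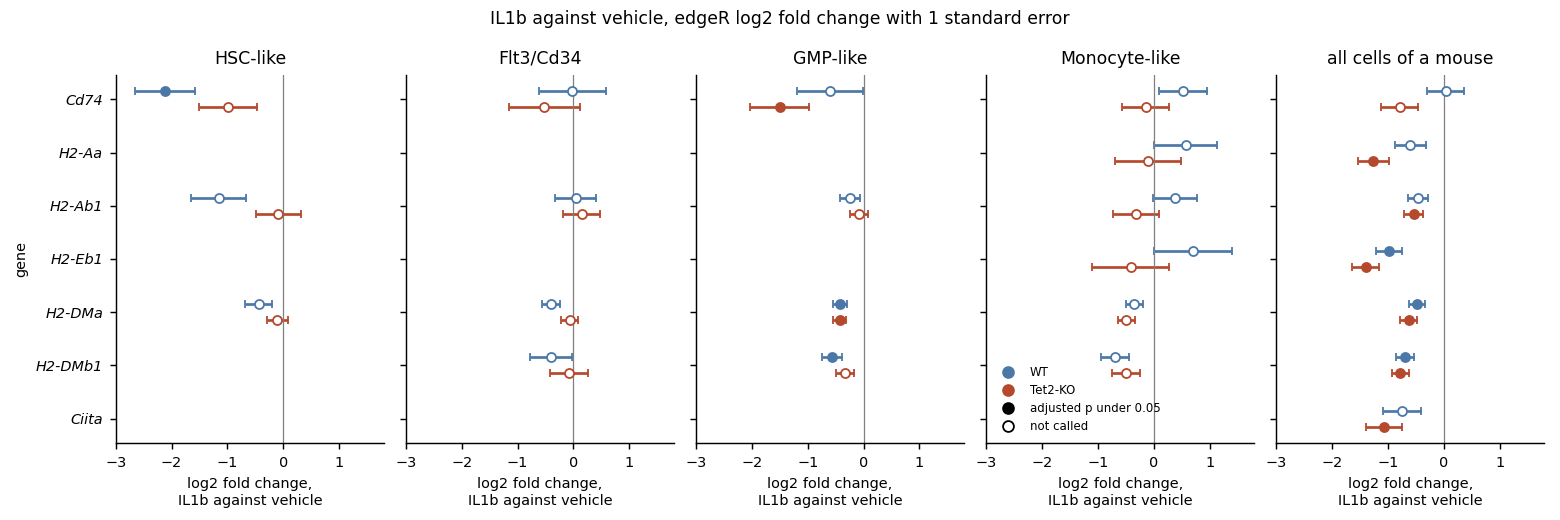
Log2 fold change of IL1β against vehicle (points, with bars of 1 SE) for the members tested in the HSC-like, Flt3/Cd34, granulocyte/monocyte progenitor-like and monocyte-like gates and in all cells of a mouse, for WT and Tet2-KO mice. Filled points have an adjusted p under 0.05, and in the gates these are Cd74 in WT HSC-like cells (-2.12) and H2-DMa, H2-DMb1 and Cd74 in granulocyte/monocyte progenitor-like cells (-0.42 to -1.50).

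Monocyte-like cells had no called member in the main edgeR fit. Among the alternatives, H2-DMa was called there in Tet2-KO mice by DESeq2, with the pool number as a block, with the hashtag ratio, without the filter and with some single mice left out. In WT mice H2-DMa was called with the hashtag ratio and H2-DMb1 without the filter. Cd74 in monocyte-like cells was 69.1, 146, 31.5 and 101 CPM in WT mice with vehicle, 148, 50.2, 124 and 101 CPM in WT mice with IL1β, 108, 280, 177 and 86.5 CPM in Tet2-KO mice with vehicle and 292, 43.1, 166 and 142 CPM in Tet2-KO mice with IL1β. All 4 groups overlapped, with a change under IL1β of 0.53 ± 0.43 in WT mice (edgeR adjusted p = 0.508) and -0.14 ± 0.42 in Tet2-KO mice (edgeR adjusted p = 0.886) on the log2 scale. H2-DMa had lower estimates with IL1β, -0.35 ± 0.15 in WT (edgeR adjusted p = 0.164) and -0.49 ± 0.15 in Tet2-KO mice (edgeR adjusted p = 0.0584), as had H2-DMb1 (-0.70 ± 0.25, edgeR adjusted p = 0.0909, and -0.50 ± 0.25, edgeR adjusted p = 0.228). The surface chains had estimates of 0.57 ± 0.57 for H2-Aa, 0.38 ± 0.39 for H2-Ab1 and 0.70 ± 0.70 for H2-Eb1 in WT mice, and of -0.11 ± 0.59, -0.32 ± 0.41 and -0.41 ± 0.69 in Tet2-KO mice, none of them called. None of the 4 members tested in the Flt3/Cd34 gate was called, with estimates from -0.52 to 0.15.

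DC-like and pDC-like cells became too few with IL1β for most tests. In DC-like cells IL1β could be tested in WT mice only, 3 with vehicle against 2, and 0.0431% of genes were called. The estimates were 0.61 ± 0.26 for H2-Aa (edgeR adjusted p = 0.436), 0.31 ± 0.20 for Cd74 (edgeR adjusted p = 0.627) and -0.18 ± 0.30 for H2-DMa (edgeR adjusted p = 0.89), and those of the other 4 members lay between 0.17 and 0.53. With mice of at least 5 cells, an alternative added after the data were seen, IL1β could be tested in both genotypes. Cd74 then changed by 0.40 in WT (edgeR adjusted p = 0.526) and 0.18 in Tet2-KO mice (edgeR adjusted p = 0.792), and H2-Aa by 0.70 (edgeR adjusted p = 0.392) and 0.25 (edgeR adjusted p = 0.761). In pDC-like cells IL1β could be tested in Tet2-KO mice only, against a single mouse that was assumed to vary like the other groups, where 0.0844% of genes and no member were called and the 6 estimates ran from -1.29 to 1.92.

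No member was called between the genotypes. With vehicle 0 of 30 tests and with IL1β 0 of 17 were called by edgeR, and 4 and 1 had an unadjusted p under 0.05. DESeq2 called none either, with no adjusted p for 1 of the 30. Across all genes, the share called between genotypes with vehicle was 0% in HSC-like, Flt3/Cd34 and DC-like cells, 0.0571% in granulocyte/monocyte progenitor-like, 0.0336% in monocyte-like and 0.0211% in pDC-like cells. With IL1β it was 0% in HSC-like, 0.0143% in Flt3/Cd34, 0.285% in granulocyte/monocyte progenitor-like and 0.0112% in monocyte-like cells. The smallest member p was in pDC-like cells with vehicle, where H2-DMa was 429, 390 and 507 CPM in Tet2-KO mice and 350, 192 and 278 CPM in WT mice. These groups did not overlap, but the log2 difference of 0.69 ± 0.21 had an edgeR adjusted p of 0.614. H2-DMb1 did not overlap either, at 80.8, 92.8 and 139 CPM against 45, 58.8 and 46.4 CPM (1.09 ± 0.33, edgeR adjusted p = 0.624). In monocyte-like cells with vehicle, Cd74 had a log2 difference of 1.08 ± 0.43 and H2-Eb1 one of 1.30 ± 0.64, both with an edgeR adjusted p of 1. In DC-like cells with vehicle all 7 differences lay between -0.18 and 0.31.

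The response to IL1β was compared between genotypes by the interaction term. Of 17 tests 0 were called by edgeR or by DESeq2, and 0 had an unadjusted p under 0.05 in edgeR. The share of all genes called was 0% in each of the HSC-like, Flt3/Cd34, granulocyte/monocyte progenitor-like and monocyte-like gates. For H2-DMa the interaction was -0.01 ± 0.18 in granulocyte/monocyte progenitor-like cells and -0.14 ± 0.21 in monocyte-like cells. For Cd74 it was -0.91 ± 0.79 and -0.67 ± 0.61 in the same gates. The calls in only 1 genotype above were therefore not shown to differ between genotypes.

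When all cells of a mouse were summed whatever their gate, an alternative added after the data were seen, part of the members were lower with IL1β. These sums, like the shares of cells, cover only cells that could be given to 1 mouse. Those were 4053 of 18914 erythroid, 13417 of 17244 granulocyte/monocyte progenitor-like and 550 of 588 NK and T cells, so most erythroid cells are missing from them. In such sums, fewer cells of a type and less RNA per cell cannot be told apart. In WT mice 3 of 7 members were called and in Tet2-KO mice 6 of 7, all lower, against 26.1% and 32% of all genes (12.7% and 16.2% lower). The 3 calls in WT mice were lost with pools as replicates (H2-Eb1 -0.71, H2-DMa -0.29, H2-DMb1 -0.46) and with mice taken from the hashtag ratio (-0.73, -0.34 and -0.49). Of the calls in Tet2-KO mice, H2-Ab1 (-0.48 and -0.55) and Ciita (-1.10 and -1.09) were lost under both and H2-Aa (-1.27) with pools. H2-Eb1 was 12.8, 8.89, 17.2 and 14.6 CPM in WT mice with vehicle and 6.23, 6.95, 9.38 and 7.53 CPM with IL1β. 1 mouse with IL1β lay above the lowest mouse with vehicle, and the log2 fold change was -0.98 ± 0.24 (edgeR adjusted p = 0.00923). In Tet2-KO mice H2-Eb1 was 13.3, 10.5, 21.5 and 18.3 CPM with vehicle and 9.77, 5.89, 4.7 and 6.15 CPM with IL1β, without overlap (-1.40 ± 0.24, edgeR adjusted p = 0.000893).

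H2-DMb1 was 24.2, 16.6, 22.6 and 27.2 CPM against 14.8, 13.3, 15.3 and 18.5 CPM in WT mice (-0.70 ± 0.16, edgeR adjusted p = 0.00536) and 23.1, 20.4, 31.6 and 34.2 CPM against 18.1, 17.5, 15.7 and 17.2 CPM in Tet2-KO mice (-0.78 ± 0.15, edgeR adjusted p = 0.00176). H2-DMa fell by 0.48 in WT animals (edgeR adjusted p = 0.027) and by 0.63 in the Tet2-KO groups (edgeR adjusted p = 0.00491). In Tet2-KO mice H2-Aa (-1.26 ± 0.28, edgeR adjusted p = 0.00374), Ciita (-1.07 ± 0.33, edgeR adjusted p = 0.0214) and H2-Ab1 (-0.54 ± 0.17, edgeR adjusted p = 0.0256) were called as well, while in WT mice the estimates were -0.60 ± 0.28 for H2-Aa, -0.75 ± 0.34 for Ciita and -0.46 ± 0.18 for H2-Ab1 (edgeR adjusted p = 0.124, 0.117 and 0.0635). Cd74 was not called in either genotype. It was 81.9, 74.1, 111 and 109 CPM against 61.2, 108, 83.9 and 167 CPM in WT mice (0.03 ± 0.33, edgeR adjusted p = 0.972) and 61.3, 63.6, 130 and 103 CPM against 93.4, 56.4, 34.9 and 40.9 CPM in Tet2-KO mice (-0.79 ± 0.33, edgeR adjusted p = 0.0778). Under library totals, which moved the median of all genes by 0.11 and 0.10, H2-DMa in WT mice (-0.36) and H2-Ab1 in Tet2-KO mice (-0.44) were no longer called, and the split of called genes went from 1757 higher and 1671 lower to 2861 and 1119 in WT mice and from 2076 and 2134 to 2868 and 1515 in Tet2-KO mice.

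Genotype and interaction gave 0 member calls in whole marrow, against 0.0152% of genes in each genotype comparison and 0% for the interaction. The interaction was -0.81 ± 0.46 for Cd74 and -0.42 ± 0.34 for H2-Eb1, both with an edgeR adjusted p of 1. Between genotypes given IL1β, the log2 difference of Cd74 (Tet2-KO minus WT) was -0.85 ± 0.33 (edgeR adjusted p = 0.494).

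The share of DC-like cells also had a lower median with IL1β in both genotypes. It was 0.914, 0, 0.582 and 1.07% of cells in WT mice with vehicle and 0.187, 0.241, 0.76 and 0.211% with IL1β. In Tet2-KO mice it was 0.593, 0.635, 1 and 1.11% with vehicle and 0.21, 0.134, 0.115 and 0.198% with IL1β, without overlap. The median pDC-like share was 1.54% and 0.146% in WT and 1.29% and 0.101% in Tet2-KO mice, with vehicle and IL1β, and that of monocyte-like cells was 11.8% and 6.49% in WT and 9.28% and 2.91% in Tet2-KO mice. That of granulocyte/monocyte progenitor-like cells was higher with IL1β, at 25.9% against 17.4% in WT and 31.3% against 19.5% in Tet2-KO mice, with overlap between mice. When the 2451 cells that met the DC-like or the pDC-like rule were left out, another alternative added after the data were seen, H2-DMb1 (-0.61, edgeR adjusted p = 0.00572) and H2-DMa (-0.43, edgeR adjusted p = 0.0306) were still called in WT mice and H2-Eb1 (-0.81, edgeR adjusted p = 0.0641) was not. In Tet2-KO mice H2-DMb1 (-0.70, edgeR adjusted p = 0.00153), H2-DMa (-0.57, edgeR adjusted p = 0.00544), H2-Aa (-1.12, edgeR adjusted p = 0.00996) and H2-Eb1 (-1.03, edgeR adjusted p = 0.0161) were called, while H2-Ab1 moved from -0.54 to -0.17 (edgeR adjusted p = 0.443) and Ciita was -1.04 (edgeR adjusted p = 0.0935). Plasma cells, a main source of Cd74, were 0.769, 0.86, 1.72 and 1.02% of cells in WT mice with vehicle and 1.26, 2.09, 0.741 and 5.14% with IL1β, and 0.546, 0.874, 1.35 and 0.734% and then 3.51, 1.38, 0.506 and 0.683% in Tet2-KO mice. The mouse with the highest plasma cell share of each IL1β group also had the highest whole-marrow Cd74 of that group (167 and 93.4 CPM). The part of monocyte-like, plasma and granulocyte/monocyte progenitor-like cells in these values was not tested.

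**Figure D5:**
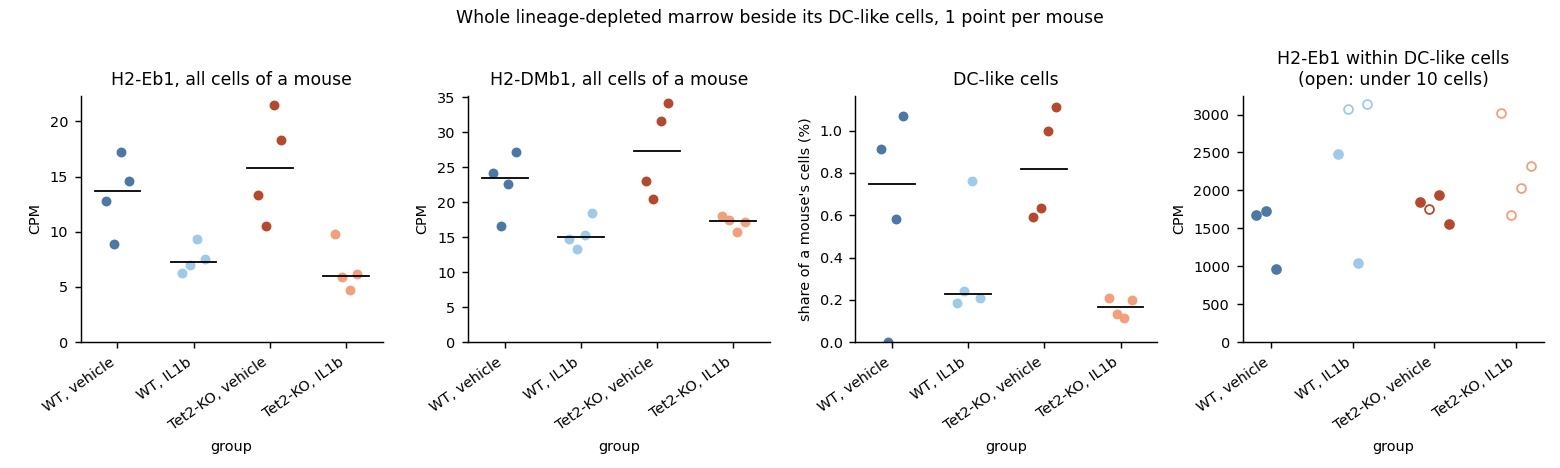
H2-Eb1 and H2-DMb1 in all cells of each mouse (CPM), the share of DC-like cells (percent of cells) and H2-Eb1 within DC-like cells (CPM, open points for mice under 10 cells), by group with 1 point per mouse. Whole-marrow H2-Eb1 and the DC-like share are lower in the 4 Tet2-KO mice with IL1β (4.7 to 9.77 CPM and 0.115 to 0.21%) than in the 4 with vehicle (10.5 to 21.5 CPM and 0.593 to 1.11%).

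Other genes of the pathway were read from 4 lists. The list of peptide loading and processing held 12 genes, that of transcription and the interferon response 14, that of turnover and costimulation 6 and that of class I presentation 9. In granulocyte/monocyte progenitor-like cells with IL1β, the called genes of these lists were split. Of 9 tested peptide loading genes 2 rose and 1 fell in WT mice and 3 rose and 3 fell in Tet2-KO mice. Of 13 tested transcription genes 3 rose and 2 fell and then 3 rose and 3 fell, and of 9 class I genes 2 rose and 3 fell in each genotype. These counts stand against 29.4% and 39.6% of all genes called in this gate. The list medians lay between -0.02 and 0.25 for these 3 lists, where the median of all genes was 0.04 and 0.03, and the 1 tested turnover gene was at -0.08 and -0.07 and was not called.

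Ifi30, a thiol reductase of antigen processing, fell by 0.73 on the log2 scale in WT (edgeR adjusted p = 0.00601) and by 0.78 in Tet2-KO granulocyte/monocyte progenitor-like cells (edgeR adjusted p = 0.00146). Ctss, the protease that removes the invariant chain, fell by 2.04 in Tet2-KO mice (edgeR adjusted p = 8.25e-05). Sppl2a, which clears the membrane stub of the invariant chain, rose by 0.43 in WT and 0.39 in Tet2-KO mice. Irf8, a factor of monocyte and dendritic cell development, fell by 0.86 in WT (edgeR adjusted p = 0.0105) and by 1.66 in the Tet2-KO groups (edgeR adjusted p = 3.43e-05), whereas Rfx5, a subunit of the X box factor, rose by 0.67 in WT mice (edgeR adjusted p = 0.00808) and by 0.63 in the other genotype (edgeR adjusted p = 0.0042). In monocyte-like cells the protease Lgmn rose by 0.73 and 1.11 in WT and Tet2-KO mice, and Ctsd rose by 0.59 in WT mice. In the Flt3/Cd34 gate the interferon-responsive factor Irf1 rose by 0.97 and 1.12, and the interferon-γ receptor chains Ifngr1 (0.92, WT) and Ifngr2 (0.93, Tet2-KO) rose as well, while Irf8 fell by 0.77 in Tet2-KO mice (edgeR adjusted p = 0.0217). In HSC-like cells Creb1, a factor that binds class II promoters, rose by 0.72 in Tet2-KO mice, as did Irf1 by 0.88. Some of these genes were also called in granulocyte/monocyte progenitor-like cells. There Irf1 rose by 0.52 in WT and 0.57 in Tet2-KO mice, Ifngr1 by 0.54 and Ctsd by 0.34 in Tet2-KO mice, and Creb1 by 0.34 in WT mice. Cd83, which stabilizes class II at the surface, had 0 of 2053290 UMIs in the Flt3/Cd34 cells of WT mice with vehicle, which allows up to 1.46 CPM, and 19 UMIs of 1127572 with IL1β, in 2 of 4 mice. In Tet2-KO mice it had 0 of 2097132 UMIs with vehicle and 20 of 1809305 with IL1β, in 4 of 4 mice. Cd83 was called in both genotypes, but it passed the filter on low counts only through mice given IL1β. Its calls therefore add no support to these counts.

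Class I genes were also called in both directions. The immunoproteasome subunit Psmb8 fell by 1.12 in Tet2-KO granulocyte/monocyte progenitor-like cells (edgeR adjusted p = 1.83e-05) and by 1.00 in the Flt3/Cd34 cells of WT mice (edgeR adjusted p = 0.00024). Psmb9 fell by 0.98 in WT HSC-like cells and by 0.42 in Tet2-KO granulocyte/monocyte progenitor-like cells, and the class I heavy chain H2-D1 fell by 0.52 in WT monocyte-like cells. The peptide loading factor Tapbp rose by 0.40 in WT and 0.43 in Tet2-KO granulocyte/monocyte progenitor-like cells, and the peptide transporter subunit Tap2 rose by 0.39 in the latter. These calls all held under library totals. The same genes were called in further gates, where Psmb8 fell in HSC-like (-0.85 and -1.04 in WT and Tet2-KO mice), monocyte-like (-0.79 and -0.67), WT granulocyte/monocyte progenitor-like (-0.93) and Tet2-KO Flt3/Cd34 cells (-0.98). In granulocyte/monocyte progenitor-like cells Psmb9 also fell by 0.57 and Tap2 rose by 0.39 in WT mice, and H2-D1 fell in both genotypes (-0.48 and -0.39). Psmb9 fell by 0.60 in WT Flt3/Cd34 cells. No difference between genotypes was called for them.

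In whole marrow, of the 12 peptide loading genes 0 rose and 1 fell in WT mice and 0 rose and 2 fell in Tet2-KO mice, of 14 transcription genes 4 rose and 2 fell in each genotype, of 5 tested turnover genes 1 rose in WT and 3 fell in Tet2-KO mice, and of 9 class I genes 2 rose and 3 fell in each, against 26.1% and 32% of all genes called in WT and Tet2-KO mice. Ifi30 fell by 0.75 and 1.13, Ctss by 0.90 in Tet2-KO mice, and Irf8 by 0.72 and 1.10. Irf1 (0.73 and 0.78), Ifngr1 (0.51 and 0.71), Rfx5 (0.60 and 0.69) and Creb1 (0.30 and 0.29) rose in both genotypes. The costimulatory genes Cd40 (-1.87) and Cd86 (-1.04) and the class II ubiquitin ligase March1 (-0.99) fell in Tet2-KO mice, and Cd83 rose by 2.28 in WT mice. Cd40 was low, with a median of 1.18 CPM in Tet2-KO mice with vehicle and 0.318 CPM with IL1β. Cd83 in WT mice had 33 UMIs with vehicle, with 1 mouse at 0, and 145 UMIs with IL1β. There its median was 1.63 CPM and its highest mouse had 5.98 CPM. Psmb8 (-0.65 and -0.82), Psmb9 (-0.35 and -0.31) and H2-D1 (-0.38 and -0.36) fell, and Tapbp (0.39 and 0.31) and Tap2 (0.34 and 0.47) rose in both genotypes. Among the largest changes of each list, Irf8 in WT mice (-0.60) and H2-D1 in both genotypes (-0.26 and -0.25) were not called under library totals. No gene of these lists was called between genotypes.

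The 5 genes whose mean level over 15 gates was most like the mean of the members were Phf11b (Pearson r = 0.901), Btla (0.886), Irf5 (0.856), Tbc1d9 (0.854) and Rnase6 (0.853), among 6395 genes that reached 50 CPM in a gate. All 5 were highest in DC-like cells, from 64.2 to 301 CPM. These are correlations over 15 gates of the same libraries and describe likeness only. The members' own correlation with their mean was 0.964 for H2-Aa, 0.933 for H2-Ab1, 0.929 for H2-Eb1, 0.909 for Cd74 and 0.787 for Ciita, but 0.587 for H2-DMa and 0.547 for H2-DMb1. Both H2-DM genes therefore followed the shared pattern least.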

How the data were processed

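Lineage-depleted bone marrow of 16 mice was profiled with 10x 3′ single-cell RNA sequencing in 8 pools of 2 hashtagged mice. The authors deposited raw UMI counts per gene and barcode, made with Cell Ranger 3.1.0 on mm10 per the labels (their processing notes also name Seurat 3.2.3), without normalization.

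Barcodes with at least 750 genes and at most 10% mitochondrial UMIs were kept, and hashtags were called with HTODemux (Seurat 5.3.0). Of the cells kept, 3938 positive for both hashtags and 33083 without a call were left out of values per mouse. Doublets of the same mouse were not removed. A cell entered a gate when it met the marker rule of only that gate, which left out 13555 cells that met several rules, apart from the 426 with both monocyte and DC markers, and 11017 that met none. Members, markers and lists were chosen with earlier results of these data known.

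UMIs were summed per mouse and gate (at least 10 cells), filtered with filterByExpr, scaled with TMM and tested with edgeR 4.0.16 (R 4.3.3), with a Benjamini-Hochberg adjusted p under 0.05 as the call. The test was checked on simulated data. CPM values use the UMI total of the gate without TMM factors. Levels in neighboring gates were compared with exact sign-flip permutation tests of log2(CPM + 1) in scipy 1.17.1 (Python 3.11.15). Intervals and limits of detection cover counting error only, and the depth per mouse ranged from 4388604 to 44152768 UMIs. The text names every member (estimates that were not called are given in part as ranges), from each list up to 4 called genes per contrast, each in the gate of its largest fold change, with their calls in other gates or the other genotype added after the values were seen, and the 5 genes most like the members. Alternatives included DESeq2 1.42.0, other size factors, no filter, blocks, pools as replicates, other cell sets and leaving out each mouse. Cells of at least 5 per mouse, all cells of a mouse (with and without DC-like and pDC-like cells) and library totals were added after the data were seen.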

Additional observations from a re-analysis of the deposited data

Results flagged for a closer look

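Each member was examined in each gate and group of 4 mice for a mouse that stood apart from the other 3, measured by its gap to the nearest mouse divided by the range of the group (Dixon's 95% limit of 0.829). Of 133 groups 9 were marked. The limit's rate of about 1 in 20 assumes continuous values and does not hold here. A member seen in only 1 mouse of a group of 4 is always marked. All 9 were single high values of members near 0. In HSC-like cells Ciita was 5.35 CPM in WT mouse 1 with IL1β and 2.08 CPM in Tet2-KO mouse 2 with IL1β, H2-Aa was 10.7 CPM and H2-Eb1 8.03 CPM in WT mouse 1 with IL1β, and H2-Eb1 was 4.15 CPM in Tet2-KO mouse 2 with IL1β, with the other 3 mice of the group at 0 in each case. In the Flt3/Cd34 gate Ciita was 2.02 CPM in Tet2-KO mouse 4 with IL1β and 1.42 CPM in WT mouse 3 with vehicle, with the others at 0. In granulocyte/monocyte progenitor-like cells Ciita was 0.088 CPM in Tet2-KO mouse 3 with IL1β, with the others at 0, and H2-Eb1 was 0.412 CPM in WT mouse 3 with IL1β, where the next mouse had 0.0666 CPM. No call of the report rests on these values.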

How the results depend on the processing

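The 3 calls under IL1β in WT mice became 6 without the filter on low counts, 0 without cells that had a marker of another antigen-presenting type and 1 with library totals. The 2 calls in Tet2-KO mice became 5, 0 and 1 under the same settings, 0 with pools as replicates and 1 with a stricter gate. Between genotypes with vehicle, the count of 0 became 1 without the filter. The counts stayed within 1.5 times in the remaining alternatives (10 of 13 for WT, 8 of 13 for Tet2-KO, 12 of 13 for genotype with vehicle, 13 of 13 for genotype with IL1β and for the interaction), but not always with the same tests. With pools as replicates the 2 calls in WT mice (H2-Aa in HSC-like and H2-Eb1 in granulocyte/monocyte progenitor-like cells) shared 0 with the 3 of the report, and with the hashtag ratio 2 of 3 in WT and 1 of 2 in Tet2-KO mice were shared (DESeq2, 2 of 2 and 1 of 2). Leaving out each mouse gave 1 to 3 calls in WT mice (1 without WT vehicle mouse 1 or IL1β mouse 1, and without IL1β mouse 3 only 1 of the 2 was among the 3 of the report, the other being H2-Aa in DC-like cells), 1 to 5 in Tet2-KO mice (1 without Tet2-KO vehicle mouse 3 or 4 or IL1β mouse 1 or 3, 4 without WT vehicle mouse 1, WT IL1β mouse 4 or Tet2-KO vehicle mouse 2, 5 without Tet2-KO vehicle mouse 1) and 0 for the genotype and interaction comparisons. The 7 neighboring gates told apart became 12 with log2(CPM + 10), 17 with mice taken from the hashtag ratio and 1 without cells of another type's markers, and 5 to 11 when each mouse was left out (11 without Tet2-KO vehicle mouse 2). The cause of these shifts was not tested. No named call changed sign. In granulocyte/monocyte progenitor-like cells, H2-DMa in WT mice was lost without WT vehicle mouse 1 or IL1β mouse 2, and H2-DMb1 without WT vehicle mice 1 or 2 or IL1β mice 1 or 3. Cd74 in Tet2-KO mice was lost with DESeq2 (-1.47), pools (-1.53), the hashtag ratio (-1.42), a stricter gate (-1.18) and without any of 5 mice (smallest change -0.90, without Tet2-KO vehicle mouse 3). Cd74 in WT HSC-like cells was lost without vehicle mouse 4 or IL1β mice 1 or 3, with the mouse block (-1.63), with pools (-2.22) and with the hashtag ratio (-1.86), and DESeq2 gave it no adjusted p, as for 8 of the 24 tests in WT and 14 of the 23 in Tet2-KO mice. In whole marrow, pools and the hashtag ratio ended the 3 calls in WT mice (H2-Eb1 -0.71 and -0.73, H2-DMa -0.29 and -0.34, H2-DMb1 -0.46 and -0.49), while H2-Eb1, H2-DMa and H2-DMb1 in Tet2-KO mice were called in all 28 alternatives, and H2-Aa in all but pools (-1.27). H2-DMa in WT mice was also lost without vehicle mice 1, 3 or 4 or IL1β mice 1, 2 or 3 (-0.39 to -0.47), H2-Ab1 in Tet2-KO mice without vehicle mice 3 or 4 or IL1β mice 2 or 3 (-0.41 to -0.54), and Ciita without vehicle mice 3 or 4 or IL1β mouse 3 (-0.89 at the smallest).

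Mouse numbers are shared between groups, but same-numbered mice did not deviate together (r from -0.209 to 0.104 over 24 pairs in granulocyte/monocyte progenitor-like cells, against -0.188 to 0.199 over 72 other pairs), so the numbers do not pair mice. With the mouse number as a replicate block, 2 tests were called in WT and 3 in Tet2-KO mice, and with the pool number 3 and 3. Depth limited the small members most, since Ciita and H2-Eb1 were at 0 in many mice outside the DC-like gate, and the DC-like and pDC-like gates held under 10 cells in most mice given IL1β.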
